A study of Homo sapiens with 10 samples.

Results

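The 10 genes described here encode enzymes that cut nucleotides and lysophospholipids outside the cell and receptors that sense ATP, UTP and adenosine. They are ENPP1, ENPP2, ENPP4, ENPP5, ENTPD1, ENTPD3, P2RY2, P2RX4, ADORA1 and ADORA2B. Every probe set annotated with exactly 1 of these symbols was taken, which gave 21 of the 54675 probe sets on the array and 10 of 19775 named genes. The genes were chosen by their values in the same comparison of 2 vectors that is described below, because ENPP genes had changed in opposite directions. The differences of the 10 genes are therefore a description and carry no test.

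RNA of HuCCT1, an established line of human bile duct cancer (cholangiocarcinoma), had been hybridised to Affymetrix arrays. The cells carried an empty vector (5 arrays) or a vector with the construct labelled YAPS94A (5 arrays), and both were grown in RPMI-1640 medium with fetal bovine serum and no other agent named. The design text calls the same construct YAP1 S127A, described there as constitutively active, whereas every sample label reads YAPS94A. The labels do not settle which form was expressed, so the arrays are called by their sample label. Serine 127 is the site at which the Hippo kinases hold YAP1 outside the nucleus, and serine 94 lies where YAP1 binds the TEAD transcription factors. The labels name neither the time after transfection nor whether the cells were a clone or a pool. They are also silent on whether each array had a culture of its own, so p-values reflect how far these arrays scatter, and that scatter may be technical.

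ATP leaves stressed or stimulated cells and is degraded outside them. NTPDases such as ENTPD1 (CD39) and ENTPD3 remove phosphates stepwise from ATP and ADP, ENPP1 splits ATP into AMP and pyrophosphate, and the ecto-5'-nucleotidase NT5E (CD73) turns AMP into adenosine. P2X receptors are ATP-gated channels, P2Y receptors are coupled to G proteins, and adenosine is read by the ADORA receptors. ENPP2, known as autotaxin, is the odd member of its family, since its main product is lysophosphatidic acid (LPA). In bile ducts, ATP released into the lumen drives chloride and bicarbonate secretion through P2Y receptors of the epithelium.

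Signals are log2 values, so a difference of 1 is a 2-fold change, and array medians lay between 6.25 and 6.28. YAP1 read 12.32 ± 0.221 with empty vector and 12.85 ± 0.182 with YAPS94A (SD, n = 5 each) on its brightest probe set, 224894_at. The difference was 0.52 ± 0.111 (SE, limma adjusted p = 0.00277). On its other probe sets, 213342_at and 224895_at, YAP1 was higher by 0.60 ± 0.0646 and 0.56 ± 0.101, without overlap. The 30 nearest bright genes had a median difference of 0.34, and YAP1 on 224894_at was 0.18 above them (adjusted p = 0.21). All 6 measured bile duct markers lay above the median signal of 6.27 in both vectors. The summed signal of 6 fibroblast markers was 9.66 to 9.97 with empty vector and 11.05 to 11.29 with YAPS94A, where LUM moved by 2.67 and the other 5, COL1A1, COL1A2, COL3A1, DCN and PDGFRB, by -0.12 to 0.00. That of 5 leukocyte markers was 8.14 to 8.29 and 7.75 to 7.83, where LYZ moved by -1.48 and PTPRC by -0.07. The part of such cells in any difference below was not tested. RNA quality, read as the 3' minus the 5' signal of the ACTB and GAPDH control probe sets, was 0.48 to 0.85 with empty vector and 0.44 to 0.82 with YAPS94A.

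The stretches before the transcription starts of 4 of these genes are printed because both directions of change are among them: ENPP1 and ENTPD3 were lower with YAPS94A, and ENPP5 and P2RX4 were higher. Each is the 250 bases before the start in RefSeq (GRCh38.p14), 5′ to 3′ on the strand of the gene. ENPP1 lies at chr6:131807770-131808019 on the plus strand, ENTPD3 at chr3:40386934-40387183 on the plus strand, ENPP5 at chr6:46170981-46171230 on the minus strand and P2RX4 at chr12:121209879-121210128 on the plus strand. Capitals mark the GC box GGGCGG and the CCAAT box on either strand, runs of overlapping GC boxes included.
ENPP1: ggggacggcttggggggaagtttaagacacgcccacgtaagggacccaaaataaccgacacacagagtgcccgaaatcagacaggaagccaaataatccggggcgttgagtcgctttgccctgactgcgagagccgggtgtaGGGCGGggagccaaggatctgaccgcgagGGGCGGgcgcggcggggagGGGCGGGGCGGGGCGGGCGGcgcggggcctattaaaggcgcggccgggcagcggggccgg
ENTPD3: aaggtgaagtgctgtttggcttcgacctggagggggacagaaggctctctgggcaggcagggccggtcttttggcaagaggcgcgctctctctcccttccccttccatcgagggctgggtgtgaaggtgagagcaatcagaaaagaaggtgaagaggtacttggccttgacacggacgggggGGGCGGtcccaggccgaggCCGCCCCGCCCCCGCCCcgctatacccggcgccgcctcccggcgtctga
ENPP5: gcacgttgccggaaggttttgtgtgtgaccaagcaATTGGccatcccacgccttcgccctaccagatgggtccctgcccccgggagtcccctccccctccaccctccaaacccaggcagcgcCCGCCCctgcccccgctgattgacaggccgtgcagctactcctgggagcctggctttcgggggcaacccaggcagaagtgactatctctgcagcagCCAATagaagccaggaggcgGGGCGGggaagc
P2RX4: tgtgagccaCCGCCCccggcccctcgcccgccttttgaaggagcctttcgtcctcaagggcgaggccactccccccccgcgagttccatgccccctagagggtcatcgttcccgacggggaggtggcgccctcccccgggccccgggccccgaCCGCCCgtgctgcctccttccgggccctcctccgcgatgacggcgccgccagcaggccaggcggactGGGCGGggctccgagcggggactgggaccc
The GC box, the motif of SP1-type factors, occurred 6 times before ENPP1, 4 times before ENTPD3, 3 times before P2RX4 and 2 times before ENPP5. It is common, being present in 42.6% of 35116 RefSeq windows of the same length, and it stood before genes of either direction. Only ENPP5 of the 4 held the CCAAT box, which 32.0% of all windows hold. GC content was 68.8% for ENPP1, 66.0% for ENTPD3, 66.0% for ENPP5 and 76.0% for P2RX4, against a median of 58.0% over all windows. The ENPP1 window held 28 CpG pairs, that of P2RX4 27, that of ENTPD3 18 and that of ENPP5 12, where the median was 11.

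3 further motifs were searched on both strands in the entries of 7 of the 10 genes, among them the 5 start sites of ENTPD1. These were GGAATG, the core bound by TEAD factors (in 11.9% of all windows), TGANTCA, bound by AP-1 (6.57%), and the core of the interferon-stimulated response element, TTTC followed by any 2 bases and TTTC (3.02%). None of these 3 letter patterns occurred in the windows of ENPP1, ENPP5, ENTPD1, ENTPD3, P2RX4, ADORA1 or ADORA2B, which says only that these letters are not in these 250 bases. The GC box was present before ADORA1 and ADORA2B, with 2 matches each, and at none of the 5 ENTPD1 starts. Overlap with other motifs was not resolved.

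Among the ENPP enzymes, ENPP1 and ENPP2 were lower with YAPS94A and ENPP4 and ENPP5 were higher. ENPP1, which makes pyrophosphate from ATP and also hydrolyses the immune messenger cGAMP, showed the largest difference of the 10 genes, 15.4-fold. ENPP2 was 9.26-fold lower on one probe set and 1.34-fold lower on the other. ENPP4, a membrane enzyme that hydrolyses diadenosine polyphosphates, was 2.09-fold higher, and ENPP5, a less studied relative, was 2.48-fold higher. In bulk RNA, fewer cells that express a gene and less RNA per cell cannot be told apart.

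The brightest ENPP1 probe set, 229088_at, read 8.46, 8.62, 8.55, 8.57 and 8.51 on empty vector arrays 1 to 5 and 4.73, 4.61, 4.30, 4.58 and 4.74 on YAPS94A arrays 1 to 5. Every YAPS94A array lay at least 3.72 below every empty vector array, and no other gene of the 10 had so wide a gap. The means were 8.54 ± 0.06 and 4.59 ± 0.177 (SD, n = 5 each), a difference of -3.95 ± 0.0764 (SE). The YAPS94A mean fell below 4.73, the lower quartile of all signals, so the size of the fold is uncertain.

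2 further probe sets of ENPP1 moved the same way by less. Probe set 205066_s_at read 7.90, 7.86, 7.88, 7.67 and 7.61 with empty vector and 4.81, 5.13, 4.87, 5.14 and 4.94 with YAPS94A, a difference of -2.80 ± 0.0816 (6.98-fold). Probe set 228952_at read 5.25, 5.94, 5.99, 5.85 and 6.08, then 3.90, 4.03, 4.27, 3.81 and 3.87, a difference of -1.85 ± 0.145. The groups stayed apart on both, although empty vector array 1 lay below its fellows on 228952_at. The last, 205065_at, was dim in both groups, at 3.70 and 3.50, and differed by -0.20 ± 0.0465. The mean over all 4 probe sets gave -2.20 for ENPP1.

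ENPP2 was read by 2 probe sets of very different response. On 210839_s_at, which stands for the gene because its mean over the 10 arrays is the higher, the arrays read 5.59, 5.55, 5.70, 5.79 and 5.75 with empty vector and 5.27, 5.13, 5.37, 5.29 and 5.20 with YAPS94A. The means were 5.67 ± 0.104 and 5.25 ± 0.0899, a difference of -0.42 ± 0.0598. On 209392_at the arrays read 6.69, 6.92, 6.62, 6.46 and 6.38, then 3.51, 3.40, 3.44, 3.28 and 3.39. The groups did not overlap on either probe set, but on 209392_at they stood 2.86 apart. Its means were 6.61 ± 0.213 and 3.40 ± 0.0837, a difference of -3.21 ± 0.0912, and the lower of these means lay below the lower quartile of signals. The suffix _s_at marks probes shared by several transcripts, and the mean of both probe sets gave -1.82. Both probe sets of ENPP2 were lower, and the size of the change depended on which of them was read.

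ENPP4 and ENPP5 lie side by side on the same chromosome, with 0 listed genes between them, and both were higher on both of their probe sets. ENPP4 read 7.91, 7.90, 8.33, 8.15 and 8.14 with empty vector and 9.16, 9.01, 9.18, 9.13 and 9.25 with YAPS94A on 204160_s_at. The means were 8.09 ± 0.181 and 9.15 ± 0.0873, a difference of 1.06 ± 0.0815. The second ENPP4 probe set, 204161_s_at, went from 6.88 to 7.99, a difference of 1.12 ± 0.0754 or 2.17-fold. All YAPS94A arrays lay above all empty vector arrays on both, and the 2 estimates differed by less than 1 SE. Both ENPP4 probe sets are of the _s_at type, so ENPP4 had no value in the run that left such probe sets out.

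ENPP5 read 7.57, 7.46, 7.64, 7.34 and 7.39 with empty vector and 8.93, 8.82, 8.75, 8.70 and 8.76 with YAPS94A on 227803_at, whose means were 7.48 ± 0.123 and 8.79 ± 0.0864. The difference was 1.31 ± 0.0639. On 237054_at it went from 4.56 to 5.74, a difference of 1.18 ± 0.0865 or 2.26-fold, starting below the lower quartile of signals. The groups of ENPP5 did not overlap on either probe set.

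**Figure D1:**
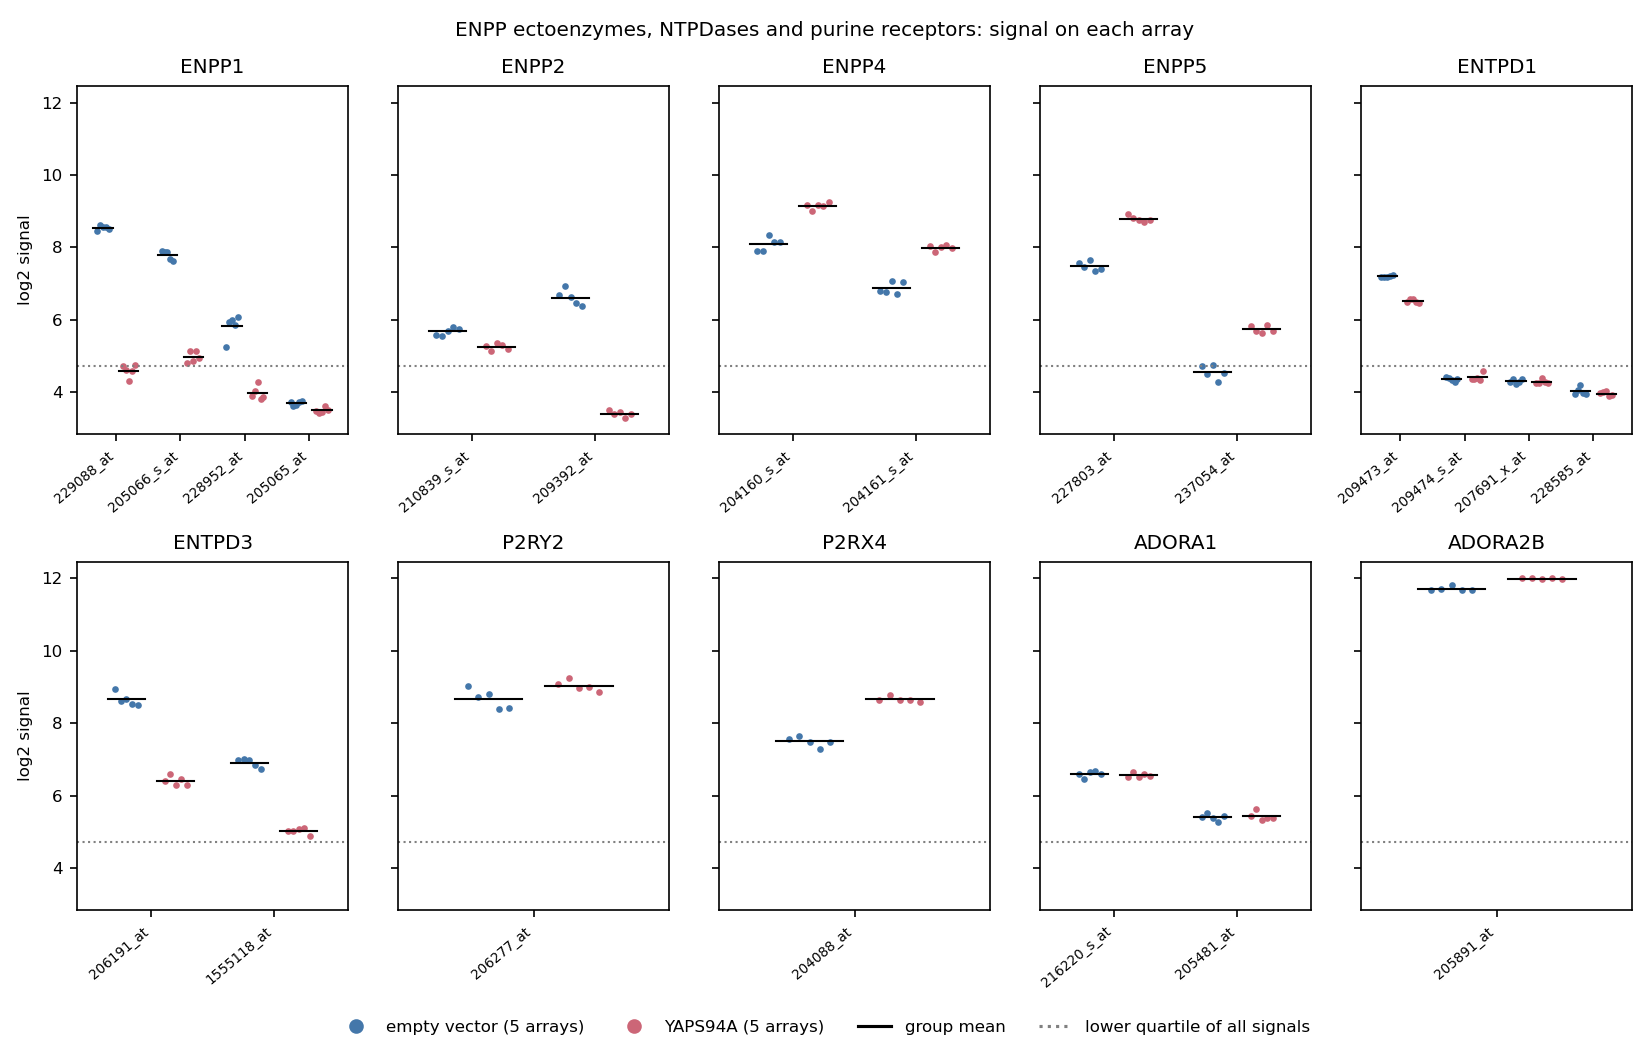
Log2 signal (vertical axis) on each of the 5 empty vector arrays (blue) and 5 YAPS94A arrays (pink) for every probe set of the 10 genes, with group means as black lines and the lower quartile of all signals (4.73) dotted. On 229088_at, ENPP1 sits at 8.46 to 8.62 with empty vector and at 4.30 to 4.74 with YAPS94A, while both ADORA1 probe sets overlap between the vectors.

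The NTPDases were lower with YAPS94A, ENTPD3 by 4.75-fold and ENTPD1 by 1.61-fold. Both are membrane enzymes whose catalytic side faces outward, ENTPD1 being the form known from leukocytes and vessels and ENTPD3 a form described in neurons and islet cells. ENTPD3 read 8.94, 8.62, 8.68, 8.54 and 8.51 with empty vector and 6.40, 6.60, 6.29, 6.45 and 6.29 with YAPS94A on 206191_at. The lowest empty vector array stood 1.90 above the highest YAPS94A array. The means were 8.66 ± 0.172 and 6.41 ± 0.129, a difference of -2.25 ± 0.0865. The second ENTPD3 probe set, 1555118_at, read 6.98, 7.01, 6.97, 6.85 and 6.73, then 5.02, 5.03, 5.07, 5.11 and 4.88, a difference of -1.88 ± 0.0623 or 3.69-fold. Both ENTPD3 probe sets thus moved together and stayed above the lower quartile.

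ENTPD1 read 7.19, 7.17, 7.19, 7.20 and 7.24 with empty vector and 6.48, 6.57, 6.56, 6.49 and 6.46 with YAPS94A on 209473_at. The arrays of a vector were tight, with SDs of 0.0232 and 0.0519 around means of 7.20 and 6.51, and the groups were 0.60 apart. The difference was -0.69 ± 0.0368. On the other 3 ENTPD1 probe sets both means lay below the lower quartile, the groups overlapped, and the differences were 0.04, -0.02 and -0.06. The lower level of ENTPD1 thus rests on 1 probe set, and the mean over all 4 gave -0.18.

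The ATP-gated channel gene P2RX4 was 2.24-fold higher with YAPS94A. Its only probe set, 204088_at, read 7.57, 7.65, 7.47, 7.30 and 7.49 with empty vector and 8.65, 8.77, 8.65, 8.64 and 8.59 with YAPS94A. The groups were 0.94 apart, with means of 7.50 ± 0.132 and 8.66 ± 0.066 and a difference of 1.16 ± 0.0632.

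P2RY2, the UTP and ATP receptor best known from secretion by duct epithelia, gave no clear separation. Probe set 206277_at read 9.03, 8.73, 8.81, 8.40 and 8.41 with empty vector and 9.09, 9.25, 8.98, 8.99 and 8.85 with YAPS94A. The groups overlapped, since empty vector array 1 lay above 3 of the YAPS94A arrays. The means were 8.67 ± 0.269 and 9.03 ± 0.149, a difference of 0.36 ± 0.12 or 1.28-fold. The empty vector SD was the widest among the probe sets that stand for the 10 genes. Empty vector array 1, with the highest P2RY2 signal, also had the largest 3' minus 5' signal (0.85), and arrays 4 and 5, with the lowest P2RY2 signals, had the smallest of that vector (0.52 and 0.48). With this measure as a covariate the P2RY2 difference was 0.43 ± 0.0539.

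Of the adenosine receptors, ADORA2B differed by little at a high signal and ADORA1 showed no separation. ADORA2B, the low-affinity receptor that couples to cAMP, read 11.68, 11.70, 11.81, 11.69 and 11.69 with empty vector and between 11.97 and 12.02 with YAPS94A. The groups were 0.16 apart, with SDs of 0.0549 and 0.0171 and an empty vector mean of 11.71, a difference of 0.28 ± 0.037 or 1.22-fold. ADORA1, the high-affinity receptor that lowers cAMP, read 6.60, 6.46, 6.66, 6.69 and 6.61, then 6.51, 6.64, 6.51, 6.60 and 6.54 on 216220_s_at, a difference of -0.05 ± 0.0505. On 205481_at ADORA1 differed by 0.03 ± 0.0648. The groups overlapped on both ADORA1 probe sets.

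Counted together, 9 of the 10 genes had a limma adjusted p under 0.05 on their brightest probe set, 5 higher and 4 lower. Over all 19775 genes the share was 36.3%, with 18.6% higher and 17.6% lower. Groups did not overlap for 8 of the 10, and for 29.1% of all genes. Among the 21 probe sets, 16 were past the same threshold, 7 higher and 9 lower, and 15 had no overlap, where the shares over 54613 probe sets were 28.6% and 23.0%. P2RY2 is among the 9, and it was no longer past the threshold in 7 of the 10 fits that left out 1 array. The median size of the difference was 0.88 over the 10 genes and 0.10 over all genes, and 5 of the 10 were past the threshold with at least a 2-fold difference, as were 3.27% of all genes. Because the genes were chosen on this contrast, nothing is read from these counts and sizes.

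**Figure D2:**
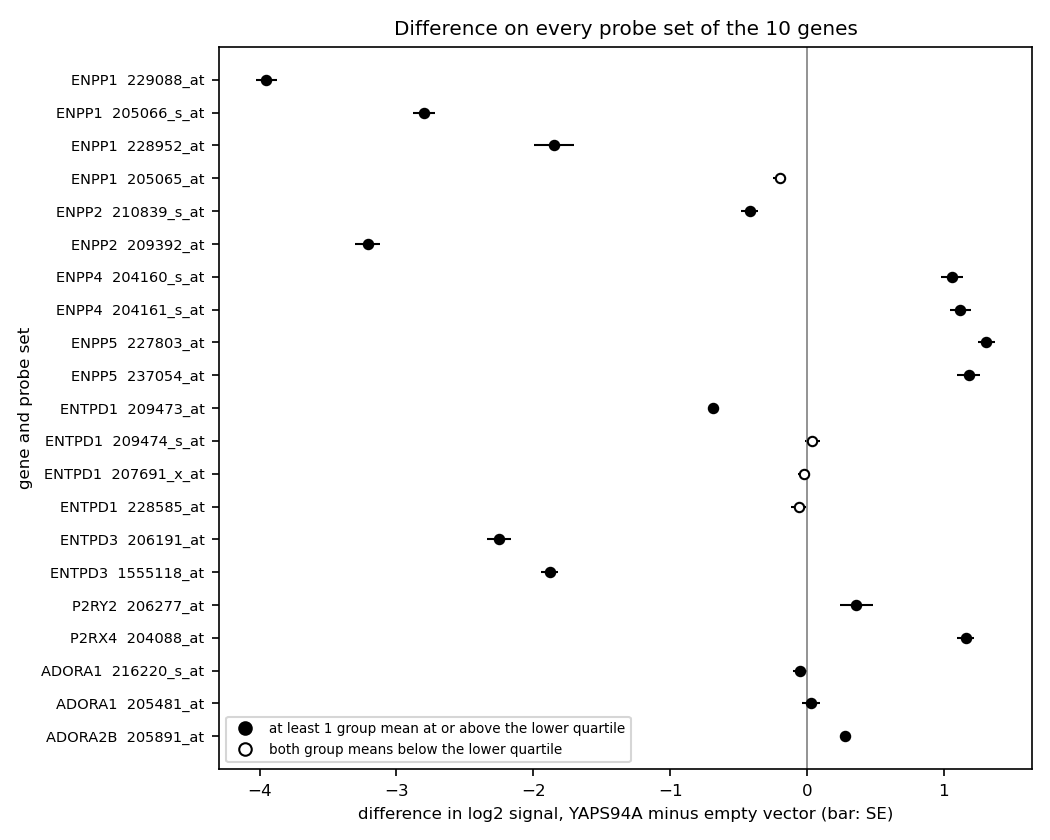
Difference in log2 signal, YAPS94A minus empty vector (horizontal axis, bars show the SE of the limma fit over 10 arrays), for each of the 21 probe sets of the 10 genes. Values run from -3.95 for ENPP1 229088_at to 1.31 for ENPP5 227803_at, and the 4 open circles are probe sets whose means both lay below the lower quartile of signals.

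The other genes of these pathways were taken from 9 lists of enzymes, receptors, release channels and transporters. Of 71 listed genes 64 were measured, and 17 rose, 10 fell and 37 did not pass the limma test. That share past the test, 42.2%, compares with 36.3% of all genes, and the median size of the difference, 0.11, with 0.10. ENPP7, ENTPD8, P2RY4, P2RY11, ADORA2A, LPAR5 and ABCC6 were not analysed here.

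Neither of the 2 other measured ENPP genes separated the vectors. ENPP3, which like ENPP1 hydrolyses extracellular nucleotides, went from 5.95 ± 0.0629 to 5.70 ± 0.135, a difference of -0.25 ± 0.0626 (limma adjusted p = 0.00823). The groups overlapped on that probe set, an _x_at type open to cross-hybridisation, and relative to its neighbours ENPP3 was at 0.09 (adjusted p = 0.295). Its other probe sets were dim and differed by 0.01 and -0.12. ENPP6, a choline-specific phosphodiesterase, lay below the lower quartile in both vectors, at 3.69 and 3.72.

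Of 17 other genes on the list for nucleotide breakdown, which includes the peptidase gene DPP4, 4 rose, 4 fell and 9 did not pass. ALPP, the placental alkaline phosphatase, rose from 8.69 ± 0.272 to 10.64 ± 0.138, a difference of 1.94 ± 0.118 (limma adjusted p = 1.06e-07). NT5E, which makes adenosine from AMP, rose by 0.45 ± 0.0343 (adjusted p = 7.22e-07) and by 0.51 and 0.57 on 2 further probe sets, but differed by -0.58 ± 0.138 on 227486_at, and the mean of its probe sets gave 0.24. DPP4 (CD26), the peptidase that anchors adenosine deaminase at the surface, rose by 0.46 ± 0.0434 (adjusted p = 4.37e-06). The falls included ADA, the adenosine deaminase, at -0.53 ± 0.128 (adjusted p = 0.00631), whose groups overlapped, and ENTPD7, an intracellular NTPDase, at -0.47 ± 0.067 (adjusted p = 0.000144). ADA and ENTPD7 were singled out after their values were seen. The other measured NTPDase genes, ENTPD2, ENTPD4, ENTPD5 and ENTPD6, differed by -0.05, -0.04, -0.10 and 0.05, and of these only ENTPD5 passed.

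None of the 6 other P2X receptor genes passed the limma test on its brightest probe set, and 1 had an unadjusted p under 0.05, as 43.1% of all genes had. P2RX6 differed by 0.00 ± 0.0498. P2RX7, the receptor whose gene lies next to P2RX4 and which opens a large pore at high ATP, differed by 0.05 ± 0.0396 (adjusted p = 0.427). A second P2RX7 probe set, 230741_at, read 4.30 ± 0.293 and 5.64 ± 0.214 without overlap, a difference of 1.35 ± 0.14 (limma adjusted p = 1.67e-05 over all probe sets). The probe sets of P2RX7 thus did not move alike, and their mean gave 0.70.

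Of 7 other P2Y genes only P2RY1, an ADP receptor, passed, at 0.22 ± 0.0716 (limma adjusted p = 0.033). Its groups overlapped, at means of 4.97 and 5.19, and on 207455_at P2RY1 differed by 0.05 ± 0.0629. The P2RY1 call was lost without empty vector array 1, 2 or 4 or YAPS94A array 1 or 5, where the difference was 0.17 to 0.23 and the adjusted p 0.051 to 0.0785. Of the adenosine receptor list ADORA3 alone was measured, and it lay below the lower quartile in both vectors, at 4.54 and 4.53. With limma, 0 of 1 passed there, also at an unadjusted p under 0.05.

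Among 10 genes of ATP release, 4 rose, 1 fell and 5 did not pass. GJA1, the gap junction protein connexin 43, whose hemichannels release ATP, read 11.91, 11.99, 11.98, 12.10 and 12.05 with empty vector and 10.01, 9.98, 10.03, 10.07 and 9.93 with YAPS94A. The groups stood 1.83 apart, a difference of -2.00 ± 0.0444 (limma adjusted p = 1.67e-11). The neighbours of GJA1 on the chromosome had a median difference of -0.37, and GJA1 was at -1.63 relative to them. CALHM2, of a family of voltage-gated ATP-permeable channels, rose by 0.62 ± 0.0716 (adjusted p = 2.67e-05), and by 1.00 on its probe set without a suffix. SLC17A9, which loads ATP into vesicles, rose by 0.61 ± 0.0807 (adjusted p = 8.02e-05). The pannexin channel gene PANX2 was higher by 0.40 (adjusted p = 0.000124) on its brightest probe set, of the _x_at type, and by 1.01 on 239067_s_at, but differed by -0.14 on its remaining probe set. PANX1, also a pannexin, read 0.11 higher (adjusted p = 0.0335) but was at -0.08 relative to its neighbours (adjusted p = 0.134). Its call was also lost without empty vector array 3, 4 or 5 or YAPS94A array 1, 2, 3 or 4 (adjusted p = 0.0622 to 0.0832).

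Nucleoside uptake genes gave 4 of 8 higher and 0 lower in the limma test, and 6 of the 8 had an unadjusted p under 0.05, where the share over all genes was 43.1%. SLC29A2, an equilibrative nucleoside transporter, rose from 8.60 ± 0.204 to 9.77 ± 0.226, a difference of 1.18 ± 0.118 (adjusted p = 8.05e-06). The mean over its probe sets, which include dim ones, gave 0.56. Relative to its neighbours, whose median difference was 0.23, SLC29A2 was at 0.94. SLC29A3, the lysosomal form, rose by 0.38 ± 0.0881 (adjusted p = 0.00451), and SLC29A1, the main surface form, by 0.20 ± 0.0539 (adjusted p = 0.0132). ADK, the kinase that returns adenosine to AMP, differed by 0.16 (adjusted p = 0.0356), and by 0.11 relative to its neighbours (adjusted p = 0.11). The ADK call was also lost without empty vector array 3, 4 or 5 or YAPS94A array 1, 2 or 4 (adjusted p = 0.0574 to 0.0857).

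Of 8 genes that receive or degrade LPA, the product of ENPP2, 3 rose and 2 fell. LPAR1, the broadly expressed LPA receptor, went from 12.36 ± 0.0163 to 12.72 ± 0.0482, a difference of 0.37 ± 0.034 (limma adjusted p = 4e-06), and was higher on its other probe sets by 0.27 and 0.40. Of the surface phosphatases that remove LPA, PLPP2 rose by 0.45 ± 0.0422 (adjusted p = 4.21e-06) and PLPP3 fell by 0.59 ± 0.0742 (adjusted p = 5.11e-05). LPAR2 was higher by 0.33 (adjusted p = 0.0161) and LPAR6 differed by -0.37 (adjusted p = 0.00506), but by -0.23 relative to its neighbours (adjusted p = 0.0534).

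Of 5 genes that handle pyrophosphate, the product of ENPP1, or phosphate, 1 rose and 2 fell. ANKH, needed for release of ATP and pyrophosphate, fell by 0.40 ± 0.0721 (limma adjusted p = 0.000831), and the mean over its probe sets, of which 2 read below 4, was -0.22. SLC20A2 and SLC20A1, sodium-phosphate cotransporters, moved apart, by 0.44 ± 0.033 (adjusted p = 6.31e-07) and -0.26 ± 0.0513 (adjusted p = 0.00168). The means over all probe sets were 0.15 for SLC20A2 and -0.60 for SLC20A1. On 229371_at and 231818_x_at SLC20A2 differed by -0.04 and 0.04, neither past the test, so its rise rests on its brightest probe set.

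**Figure D3:**
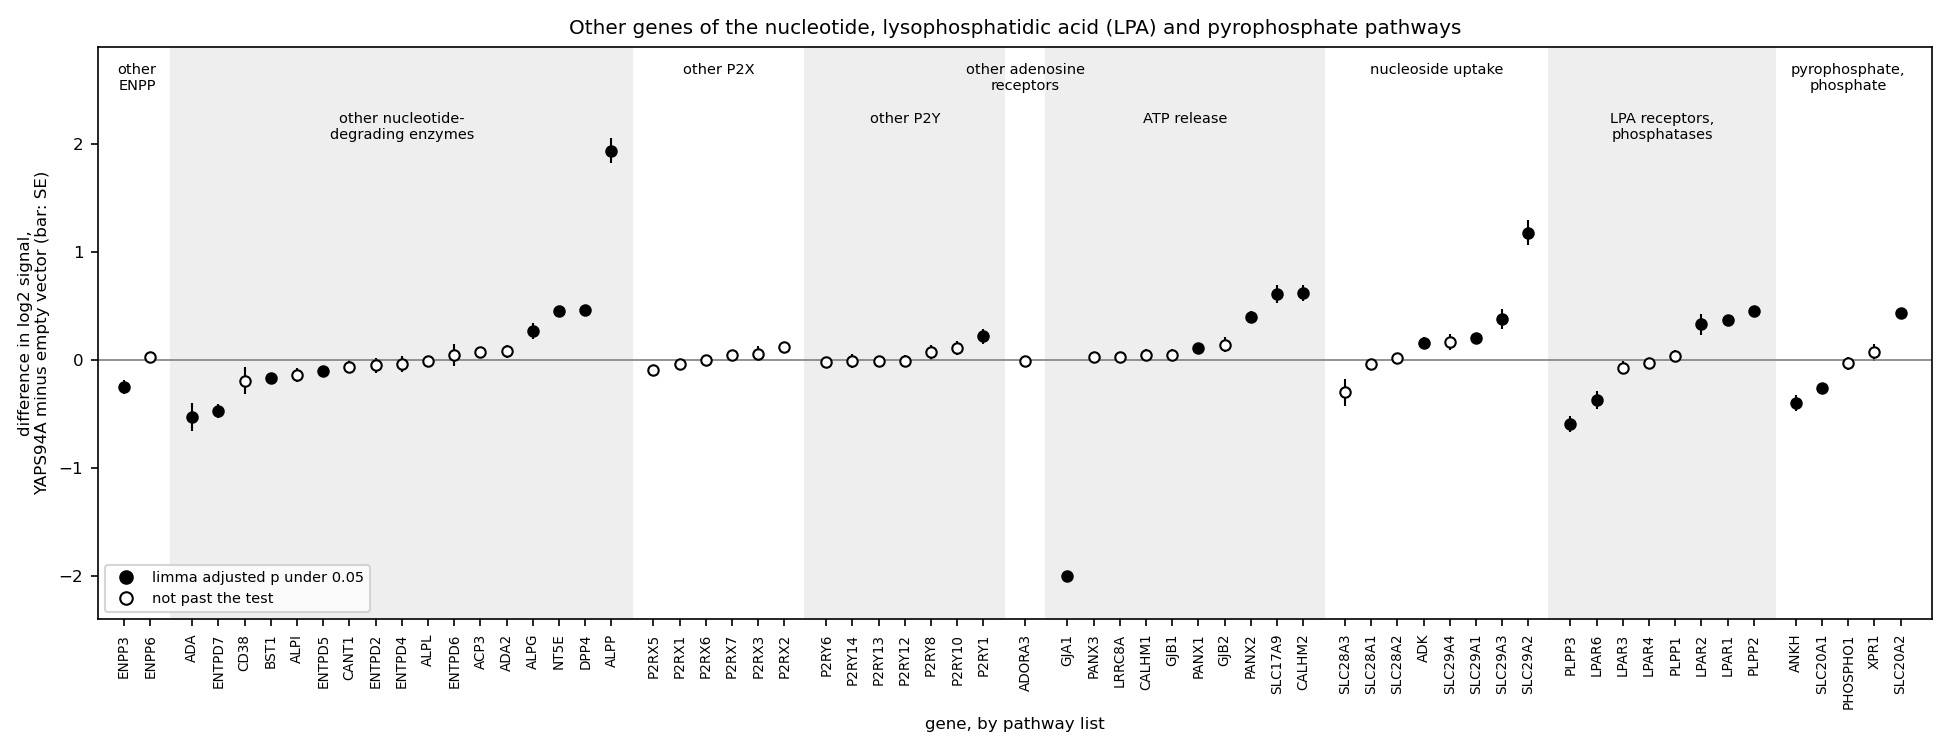
Difference in log2 signal, YAPS94A minus empty vector (vertical axis, bars show the SE), for the 64 measured genes of 9 pathway lists, filled where the limma adjusted p was under 0.05. GJA1 stands lowest at -2.00 and ALPP highest at 1.94, and most other genes lie near 0.

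Each of the 10 genes was also set against its neighbours on the chromosome, since adjacent genes shifted together in some stretches. ENPP1 lay in a stretch that was lower: 26 of the 30 nearest bright genes passed the test in either direction, as 52.4% of all bright genes did, their median difference was -0.33, and ENPP1 was at -3.62 relative to them. Bright means a mean signal above the median over genes. A second set was the 30 measured genes around ENPP1 in gene order, as many before it as after it. Genes with both group means below the lower quartile of signals were left out of this set. In it 17 were lower and 1 was higher, with a median of -0.17. The next genes after ENPP1 in this order were CCN2, a matricellular growth factor, at -1.48 ± 0.0899 and MOXD1 at -0.70 ± 0.0644. ENPP3 lay before ENPP1 with 5 listed genes between. ENTPD3 had a neighbour median of -0.19 and ENTPD1 of -0.09, which left -2.06 and -0.60.

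For the genes that were higher, the neighbours gave different pictures. Around ENPP4 and ENPP5 the median of the 30 nearest bright genes was 0.08, which left 0.98 and 1.24. In gene order, counting only genes with at least 1 group mean at or above the lower quartile, CLIC5 came just before them and was also higher (1.00 ± 0.0954). The transcription factor gene RUNX2, before CLIC5, was lower (-1.88 ± 0.0448), and RCAN2, just after ENPP4 and ENPP5, differed by -0.07. P2RX4 had a neighbour median of 0.03 and was at 1.14 relative to it. OASL, an interferon-induced gene 2 places away in the same count, was higher by 3.11. ADORA2B was at 0.30 and ENPP2 at -0.46 relative to neighbour medians of -0.01 and 0.04. P2RY2 sat among genes whose differences were mostly above 0. Of the 30 genes around it in gene order, chosen as for ENPP1, 7 lay below 0. In the limma test 14 of them were higher and 0 lower, where the shares over all genes were 18.6% and 17.6%. The median was 0.24 over these 30 and 0.25 over the bright neighbours. Relative to the bright neighbours the P2RY2 difference was 0.11.

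**Figure D4:**
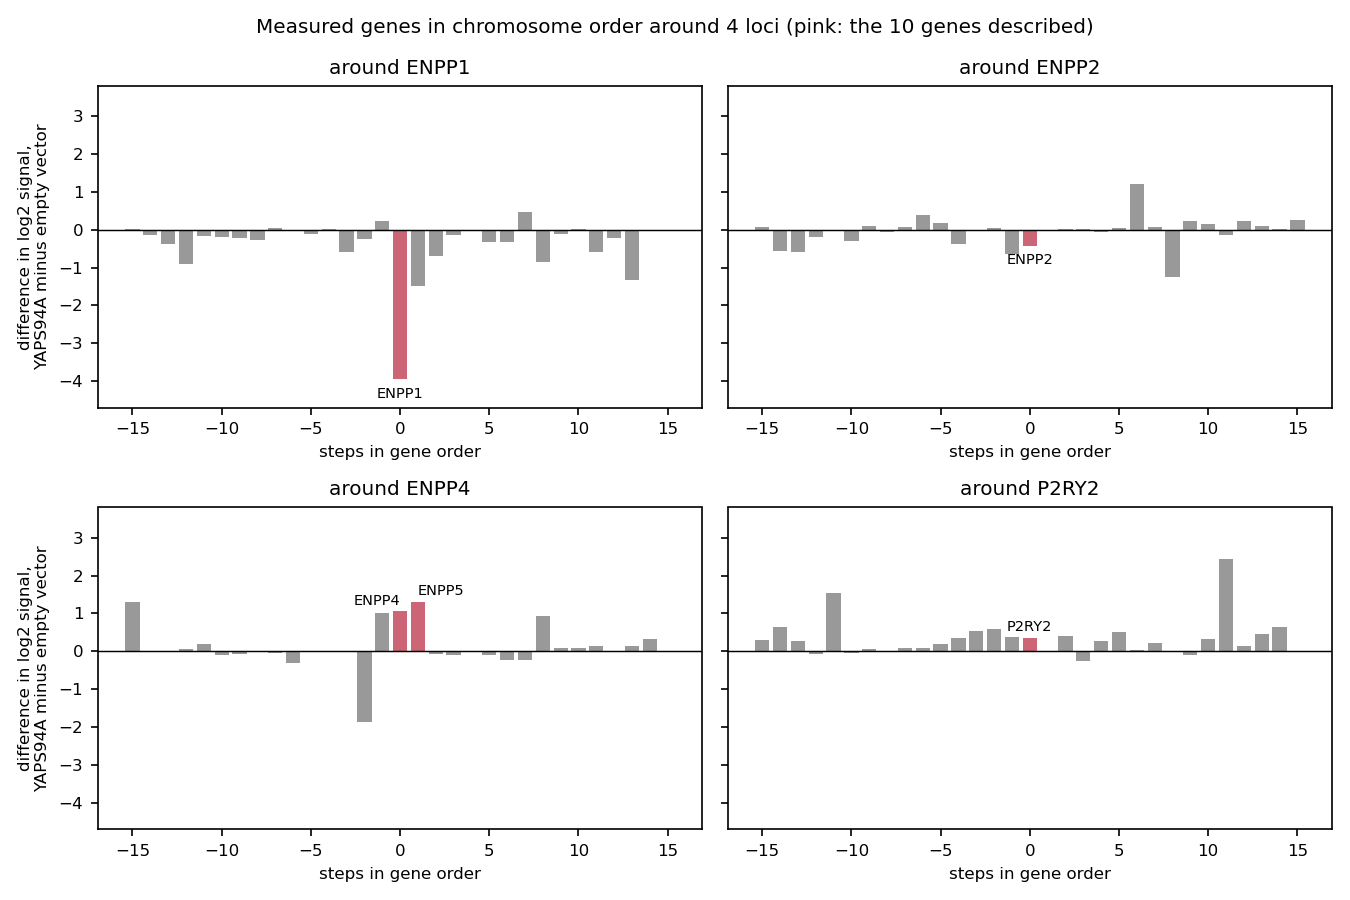
Difference in log2 signal, YAPS94A minus empty vector (vertical axis), of the 15 measured genes on either side of ENPP1, ENPP2, ENPP4 and P2RY2 (horizontal axis, steps in gene order, not distance). Genes with both group means below the lower quartile of signals are left out. ENPP1 reaches -3.95 beside CCN2 at -1.48, ENPP4 and ENPP5 stand together at 1.06 and 1.31, and the bars around P2RY2 are mostly above 0.

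The genes whose profiles over the 10 arrays came closest to each ENPP gene were ranked by the root mean square distance between log2 values, each taken relative to its empty vector mean. For ENPP1 these were CFTR, the chloride channel of secretory epithelia, at a distance of 0.163, SYT16 at 0.166 and C1orf21 at 0.186. They differed between the vectors by -3.90, -3.84 and -4.08. For ENPP4 they were KAT2B (0.0699), RAB3D (0.072) and JAZF1 (0.0771), which were higher by 1.02 to 1.07. ENPP5 itself came 287th of 19774 genes by its distance to ENPP4 (0.235). For ENPP5 they were KLF13 (0.0655), TC2N (0.071) and FBLN1 (0.0732).

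For ENPP2 the closest profiles depended on the probe set. On 210839_s_at they were CTH (0.0394), NAMPT (0.0422) and STC1 (0.049), with differences of -0.40 to -0.44. On 209392_at, looked at after its values were seen, they were LRP4 (0.159), LRIG1 (0.181) and CEMIP (0.182), with differences of -3.02 to -3.10. These distances mostly pick genes with the same difference between the vectors, and 10 arrays hold little else to tell profiles apart.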

How the data were processed

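The deposited values are log2 signals per probe set of Affymetrix arrays, 1 table for all 10 arrays. Per the labels' protocols, a NuGEN Ovation kit amplified the RNA and biotin was the label. The authors' way of summarising and normalizing probes, not given in the sources used here, left array medians nearly equal. Signals ranged from 2.86 to 14.43. Arrays count no molecules, so their number, 5 per vector, limits the precision.

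Gene symbols come from the annotation of the platform, brought up to date with RefSeq. Of 54675 probe sets, 41097 had 1 gene symbol, 1801 several and 11777 none, and 41037 of the first were found in RefSeq. Control probe sets (62) were left out. Each gene was represented by its 1-symbol probe set with the highest mean. The vectors were compared with limma 3.58.1 in R 4.3.3 (lmFit, eBayes, two-sided), once over 19775 genes and once over 54613 probe sets, with Benjamini-Hochberg adjustment over each table and a threshold of 0.05. The code was tested on simulated data. Means and SEs of the 10 genes come from the fit over probe sets.

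The genes described and the lists were chosen with earlier results of these data known. Named besides were YAP1, up to 3 genes with the smallest adjusted p per list (its brightest gene where none passed), ENPP3, NT5E, P2RX7, LPAR1, genes of like profile and nearest neighbours. PANX1, PANX2, ADK, LPAR2, LPAR6, ENPP6, ADA, ENTPD2, ENTPD4, ENTPD5, ENTPD6 and ENTPD7 were named after their values were seen. The neighbours of a gene are the 30 genes nearest by RefSeq start position on its chromosome with a mean signal above the median over genes. Their median was subtracted as a fixed value, so the spread of the neighbours does not enter the p-values relative to neighbours.

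Same-numbered arrays of both vectors deviated from their group means with correlations of 0.102 to 0.59 over genes, above 0.1 in each of the 5 pairs, and so were taken to be possibly paired, from this check and not from a label. Over all probe sets the lowest was 0.0629. The SEs and p-values printed have no block.

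Alternatives were the replicate block, quantile normalization, median centring, 2 filters on dim genes, the mean of a gene's probe sets, leaving out _x_at and _s_at probe sets, an intensity trend, array weights, subtraction of the neighbour median, each array left out and, added after the data were seen, an RNA quality covariate.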

Additional observations from a re-analysis of the deposited data

Results flagged for a closer look

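In 11 of 100 groups of 5 arrays checked, 1 array lay far from the other 4 by Dixon's criterion, which chance meets in about 1 of 20 groups. Of the 10 genes, ENPP1 probe set 228952_at read 5.25 on empty vector array 1, where the others began at 5.85. ADORA2B read 11.81 on empty vector array 3, above a next value of 11.70. Dim ENTPD1 probe sets read 4.59 on YAPS94A array 5 (209474_s_at) and 4.38 on YAPS94A array 3 (207691_x_at). Among the pathway genes, empty vector array 1 stood apart for ADORA3 (4.42) and LPAR1 (12.39), YAPS94A array 5 for P2RX6 (5.99) and P2RY1 (5.36), and YAPS94A array 2 for SLC29A1 (11.49), ADK (12.84) and ENTPD7 (8.27). None of these lone values put a group of ENPP1 or ADORA2B across the other.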

How the results depend on the processing

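Counts of calls stayed within 1.5 times the reported ones under every alternative run: 5739 to 8713 genes, 13086 to 19372 probe sets, 24 to 31 pathway genes and 8 to 9 of the 10 genes. The filtered runs tested fewer genes. Above the median of signals these were 12233 genes, 39 pathway genes and 9 of the 10, without ENPP2. Leaving out _x_at and _s_at probe sets left 17098 genes, 56 pathway genes and 9 of the 10, without ENPP4. With the replicate block, 8154 genes passed in place of 7172, and no call changed among the 10 genes, YAP1 and the pathway genes named here. ENTPD2, ENTPD4, ENTPD5 and ENTPD6 were not followed under the alternatives. Relative to neighbours, ENPP3 (0.09, call lost), PANX1 (-0.08, call lost) and P2RX6 (0.16, past the test) changed sign. ENPP6 (-0.05) and ADORA3 (0.03), past the test in neither fit, also changed sign. YAP1 (0.18), P2RY2 (0.11, adjusted p = 0.479), ADK (0.11) and LPAR6 (-0.23) were no longer past the test relative to neighbours. Without _x_at and _s_at probe sets PANX2 was at -0.14, its call lost. In the mean of the probe sets ADK (0.13) and PANX1 (0.17) lost their calls and P2RX7 (0.70) gained one. The cause was not tested. P2RY2 also lost its call without empty vector array 2, 4 or 5 or YAPS94A array 1, 2, 3 or 4, and with each array left out in turn its difference was 0.29 to 0.45. In the same runs ENPP1 stayed at -3.99 to -3.88, ENPP2 at -0.45 to -0.39, ENPP4 at 1.01 to 1.12, ENPP5 at 1.28 to 1.35, ENTPD3 at -2.30 to -2.18 and P2RX4 at 1.11 to 1.20. The mean over probe sets moved ENPP1, ENPP2 and ENTPD1 as given above, because dim probe sets or a second response entered it. Without detection calls, levels below the lower quartile of signals limit the folds of ENPP1 and ENPP2.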
